A study of Mus musculus with 4 samples.

Results

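The growth arrest and DNA damage-inducible 45 family consists of *Gadd45a*, *Gadd45b* and *Gadd45g*, and the 3 genes were taken by symbol from the 31055 genes counted in single cells of the caudal part of mouse embryos. The family was selected on 2 values of these same data, the level of *Gadd45a* in neuroepithelium of *Grhl3*-null embryos and its relation to *Grhl3* in ectoderm. Both are therefore given below as descriptions without a test. Tests were kept for the other classes of cells.

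Embryos were harvested at E8.5 with 6 to 7 somites from intercrosses of *Grhl3*+/- mice. The WT group was 1 pool of cells from 5 embryos and the *Grhl3*-null group 1 pool from 3 embryos, and 2 droplet reactions were run per pool, which gave the libraries WT 1, WT 2, *Grhl3*-null 1 and *Grhl3*-null 2. The null allele was constitutive, so every cell of a null embryo carried it, and no embryo had received a treatment. Since libraries of a genotype shared their pool, p-values measure only the spread between reactions, and genotype cannot be told apart from any other difference between the pools.

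GADD45 proteins are small acidic proteins without known enzymatic activity that act by binding partners. They bind the kinase MAP3K4, which activates the p38 and JNK pathways, they restrain the cell cycle through CDK1, PCNA and p21, and they have been linked to DNA demethylation through TET and TDG enzymes. *Gadd45a* is a p53 target, *Gadd45b* is induced early by cytokines and stress, and *Gadd45g* is used in differentiating mesoderm and neural progenitors. Loss of *Gadd45a* in mice can cause exencephaly, a failure of cranial neural tube closure.

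The genes lie on different chromosomes of mm10 (GRCm38), each with 4 exons in the GENCODE annotation. *Gadd45a* (ENSMUSG00000036390) lies at chr6:67035096-67037457 on the minus strand, *Gadd45b* (ENSMUSG00000015312) at chr10:80930073-80932204 on the plus strand and *Gadd45g* (ENSMUSG00000021453) at chr13:51846678-51848468 on the plus strand. The transcripts compared, of 1223, 1284 and 1071 bases, shared no identical run longer than 17 bases. Within the last 500 bases, next to which the 3′ kit reads, the longest shared run was 9 bases. The counts of a member can therefore be told apart from those of its paralogues.

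The bases just upstream of each annotated gene are shown because the members were high in different classes. The sequences are from RefSeq (GRCm38.p6), 5′ to 3′ on the strand of the gene, and all 3 members were matched among 32851 promoters. Capitals mark matches to the octamer ATGCAAAT, the CCAAT box, the TATAAA box, the E-box CACGTG or the Grainyhead-like core AACCGG on either strand. *Gadd45a* is shown at chr6:67037458-67037657 (minus strand), *Gadd45b* at chr10:80929841-80930072 (plus strand) and *Gadd45g* at chr13:51846425-51846674 (plus strand).
Gadd45a: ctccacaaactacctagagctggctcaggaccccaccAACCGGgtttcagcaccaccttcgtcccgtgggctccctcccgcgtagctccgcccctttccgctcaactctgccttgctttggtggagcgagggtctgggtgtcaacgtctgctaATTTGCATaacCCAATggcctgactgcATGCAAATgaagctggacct
Gadd45b: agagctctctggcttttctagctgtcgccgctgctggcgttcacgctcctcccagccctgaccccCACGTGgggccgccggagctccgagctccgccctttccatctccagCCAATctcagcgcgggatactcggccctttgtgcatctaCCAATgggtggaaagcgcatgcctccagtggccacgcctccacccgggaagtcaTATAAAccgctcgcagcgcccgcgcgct
Gadd45g: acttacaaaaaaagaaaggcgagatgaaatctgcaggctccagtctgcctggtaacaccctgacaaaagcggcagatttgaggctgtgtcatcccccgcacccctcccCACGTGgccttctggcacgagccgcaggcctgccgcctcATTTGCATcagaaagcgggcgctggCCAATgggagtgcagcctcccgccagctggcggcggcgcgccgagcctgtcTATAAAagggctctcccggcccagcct

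The octamer was found in 1.74% of all promoter windows of 300 bases (250 before to 50 after the start). *Gadd45a* held it at bases -97 to -90 on the opposite strand and at -70 to -63 on its own strand, and *Gadd45g* held it at -103 to -96 on the opposite strand, counted from the RefSeq start. CCAAT was found in the windows of all 3 members and in 37.4% of all windows, TATAAA in those of *Gadd45b* and *Gadd45g* and in 13.6% of all windows, and CACGTG in the same pair and in 7.15% of all windows. AACCGG was found at -213 to -208 of *Gadd45a* and in 6.83% of all windows. Its palindrome AACCGGTT, in 0.146% of all windows, was in none of the 3. No matches overlapped each other.

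The deposited libraries held 5698 to 6186 cells and 217559026 to 232903564 unique molecular identifiers (UMIs), each of which marks 1 captured transcript. Between 4781 and 5459 cells per library passed the filters. UMIs of *Grhl3* numbered 878 and 803 for WT against 12 and 14 for null. Cells fell into 15 clusters, of which 14 could be named from the study's marker lists. The pre-somitic mesoderm-like class held 511 and 495 cells in WT and 3 and 4 in null, and between 63.8% and 63.9% of WT cells but 35.6% and 37.6% of null cells were called female. Any 2 libraries shared 7 to 16 cell barcodes.

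Each member had its highest level in a different class (plot of levels by class). Levels are UMIs of the gene in 1000000 UMIs (CPM), taken from the sum of each class and library, and such sums do not tell fewer expressing cells from less RNA per cell. Over whole libraries *Gadd45a* was at 17.5, 17.0, 23.3 and 25.5 CPM, *Gadd45b* at 3.798, 3.93, 3.77 and 3.85 CPM and *Gadd45g* at 20.2, 18.9, 23.6 and 26.6 CPM in WT 1, WT 2, null 1 and null 2, the order used for sets of 4 values throughout. Of all *Gadd45a* UMIs, the neuroepithelium-like class gave 23.3% and 24.1% in WT and 46.2% and 47.6% in null. The class with markers of surface ectoderm and of the neural plate border, called ectoderm-like below, was between 4.30% and 5.40% of the cells and gave 28.0%, 21.3%, 29.0% and 24.9% of *Gadd45b* UMIs. The endothelium-like class, between 2.78% and 4.12% of the cells, gave 35.1%, 34.4%, 40.0% and 43.1% of *Gadd45g* UMIs.

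**Figure D1:**
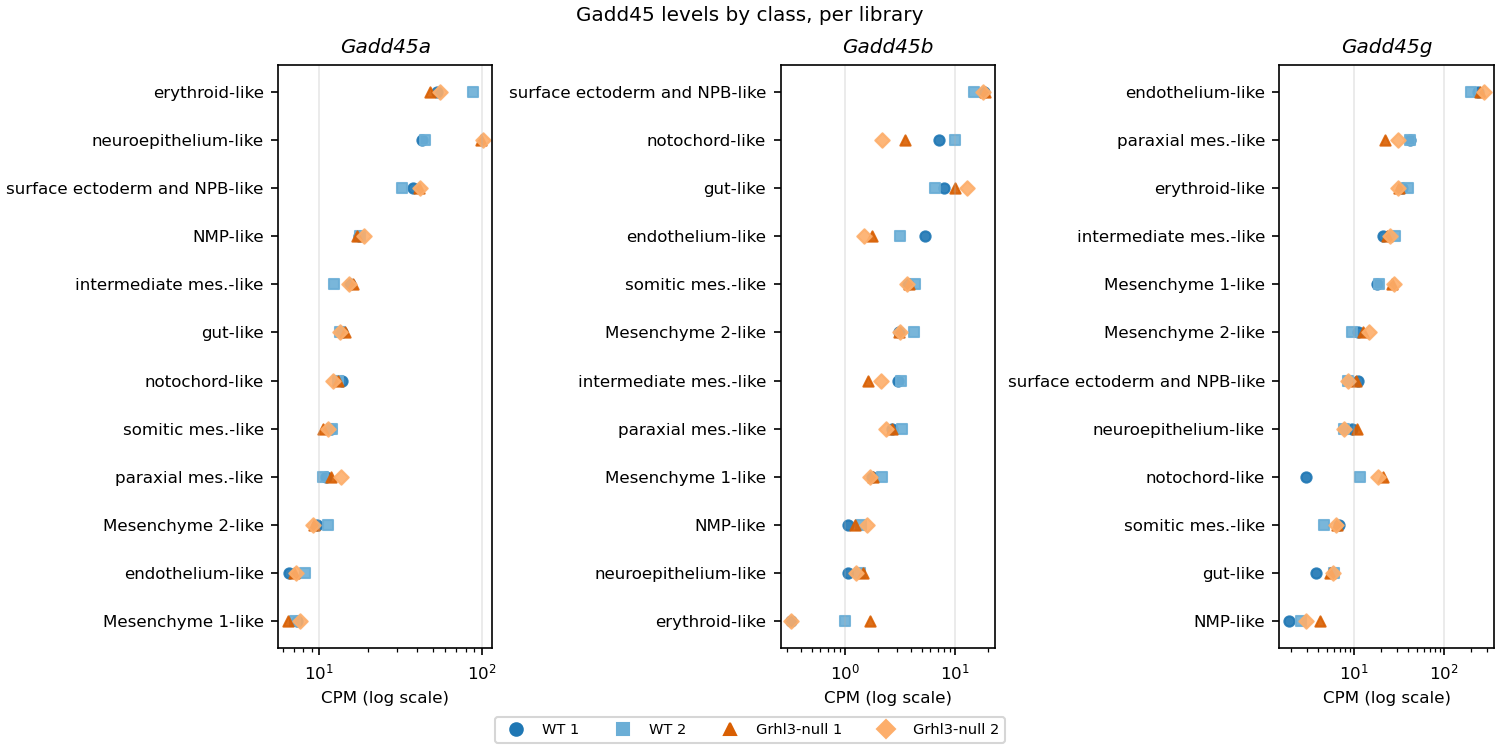
Level of each member in 12 classes as CPM of summed UMIs on a log scale, 1 point per library (mes., mesoderm; NPB, neural plate border; NMP, neuromesodermal progenitor). *Gadd45a* was highest in erythroid-like and neuroepithelium-like sums, *Gadd45b* in ectoderm-like (surface ectoderm and NPB) and *Gadd45g* in endothelium-like sums, where the libraries sat between 197 and 276 CPM.

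*Gadd45a* was highest in WT in the erythroid-like class, at 71.1 ± 25.5 CPM (SD, n = 2 libraries), followed by primordial germ cell-like cells at 63.3 ± 4.36 CPM, whose ranges overlapped. The neuroepithelium-like class followed at 44.0 ± 1.02 CPM, the ectoderm-like class at 35.1 ± 3.77 CPM and the neuromesodermal progenitor (NMP)-like class at 17.7 ± 0.224 CPM, each below the range of the one before it. The other fitted classes were between 7.24 CPM in Mesenchyme 1 and 13.9 CPM in intermediate mesoderm, and most of these neighbours overlapped. In null the neuroepithelium-like class stood first at 100.2 ± 2.12 CPM, above primordial germ cells at 60.5 ± 8.76 CPM and erythroid cells at 51.8 ± 5.05 CPM, which overlapped each other. Primordial germ cell-like cells numbered only 5 to 26 per library and were not tested.

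Within the NMP-like class *Gadd45a* was higher with *Sox2* among cells with *T*, and lower with *T* among cells with *Sox2*. Cells with UMIs of *Sox2*, the neural and progenitor factor, but not of *T*, the mesodermal factor Brachyury, had 36.6, 31.0, 36.4 and 37.7 CPM. Cells with both had 16.0, 16.4, 15.7 and 17.7 CPM, and cells with *T* alone 8.33, 13.7, 11.7 and 15.0 CPM. The order of these groups was the same in all 4 libraries, and cells with neither gene are left out here.

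*Gadd45b* was highest in the ectoderm-like class, which held 16.6 ± 2.35 CPM in WT and 18.4 ± 0.758 CPM in null, without overlap with another fitted class. Gut, notochord and primordial germ cell-like sums followed in WT at 7.32, 8.63 and 9.05 CPM. Neuroepithelium and NMP sums were both at 1.23 CPM in WT, and erythroid sums held only 1 to 5 UMIs per library.

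*Gadd45g* was concentrated in the endothelium-like class, at 217 ± 28.7 CPM in WT and 262 ± 19.8 CPM in null. Paraxial mesoderm at 41.8 ± 0.585 CPM and erythroid cells at 37.0 ± 3.93 CPM came next in WT, followed by intermediate mesoderm at 24.6 ± 5.39 CPM and Mesenchyme 1 at 18.5 ± 0.602 CPM. The NMP-like class was lowest at 2.26 ± 0.468 CPM. In null, erythroid cells, Mesenchyme 1, paraxial mesoderm, intermediate mesoderm and notochord fell between 19.6 and 31.0 CPM. Of endothelium-like cells 76.3%, 75.6%, 81.2% and 87.3% had a UMI of *Gadd45g*, against 6.45%, 6.83%, 12.7% and 8.42% of NMP-like cells at a similar median depth (35654 to 39228 against 35956 to 38655 UMIs per cell). With every cell thinned to 7500 UMIs the shares were 52.6%, 50.6%, 55.7% and 68.5% in endothelium and 1.34%, 1.29%, 2.94% and 1.20% in NMP.

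Most cells had UMIs of at most 1 member. No member was seen in 44.1%, 44.0%, 40.5% and 40.1% of the cells, 1 member in 42.3%, 42.3%, 43.5% and 44.4%, and all 3 in 1.36% to 1.61%. The ectoderm-like class was, of 3 classes examined, the one with most overlap, with *Gadd45a* and *Gadd45b* together in 28.2%, 27.3%, 27.9% and 25.6% of its cells. In neuroepithelium that pair was seen in 2.77% to 3.81% of the cells and in endothelium in 1.02% to 3.29%. Over 48 sums of class and library, Pearson's r was -0.10 for *Gadd45a* and *Gadd45b*, -0.24 for *Gadd45a* and *Gadd45g* and -0.24 for *Gadd45b* and *Gadd45g*.

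The genes with the most similar pattern were ranked among 7870 genes by r of log2(CPM + 1) over the same 48 sums, which are 12 classes in 4 libraries and hence not independent. For *Gadd45a* these were *Ston2* (r = 0.82), *Eipr1* (0.80), *Nol7* (0.80), *Ola1* (0.78) and *1110004E09Rik* (0.78). For *Gadd45b* they were *Cstb* (0.85), *Top3b* (0.85), *Naxe* (0.84), *Krt7* (0.83) and *Dap* (0.82), and *Krt7* encodes an epithelial keratin. For *Gadd45g* they were *Ufm1* (0.89), *Fli1* (0.86), *Ppp1r9b* (0.85), *Utp11* (0.84) and *Dnm2* (0.83), and *Fli1* encodes an endothelial and blood ETS factor.

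In the neuroepithelium-like class, the contrast on which the family was selected, *Gadd45a* stood at 43.3 and 44.7 CPM in WT and at 98.7 and 102 CPM in null. The genotypes did not overlap, as was the case with null on top for 34.7% of all genes of the class and with null below for 25.3%. The log2 fold change was 1.16, and 204 of 13020 genes had a higher one. Since the family was selected on this contrast, neither number is a test of it. *Gadd45b* had 1.08, 1.38, 1.46 and 1.27 CPM and *Gadd45g* 9.59, 7.80, 10.8 and 7.81 CPM, and for both the genotypes overlapped.

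The excess of *Gadd45a* came from a minority of cells. The median was 1 UMI per cell in every library, but the 90th percentile was 4 in each WT library and 14 in each null library. Cells with at least 10 UMIs made up 3.76% and 5.77% of the class in WT and 14.9% and 14.2% in null, and gave 43.2%, 53.6%, 71.5% and 72.9% of its *Gadd45a* UMIs. No *Gadd45a* UMI was seen in 46.5%, 48.7%, 38.1% and 40.2% of the cells.

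A clustering at a resolution of 0.8 gave a cluster of 359 cells, here called the dorsal cluster after *Pax3*, a dorsal neural tube gene. It was picked after its values were seen, because *Gadd45a* was its leading gene, at 324 CPM against 15.3 CPM in all other cells. The next were *Pax3*, *Foxd3*, *Tfap2b*, *Nog*, *Msx3*, *Zic5*, *Cdh6*, *Sema3a* and *Rprm*, of which *Foxd3* and *Tfap2b* are neural crest genes, *Msx3* and *Zic5* dorsal neural tube genes and *Nog* a BMP antagonist. It took 46 and 40 neuroepithelium-like cells in WT (9.11% and 8.55% of the class) and 135 and 133 in null (22.4% and 20.3%).

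In the neuroepithelium-like cells of the dorsal cluster *Gadd45a* stood at 268 and 248 CPM in WT and 335 and 362 CPM in null (plot of the neuroepithelium-like class). In all other cells of the class it was at 21.7 and 20.7 CPM in WT and 25.4 and 26.1 CPM in null. The null libraries were above the WT libraries on both sides of the split. Without the dorsal cluster the log2 ratio of the mean CPM was 0.28, against 1.19 for the whole class. The cluster was picked for the highest *Gadd45a* level, so the choice itself favours a smaller value without it. The share of cells in the cluster and the level in it were both higher in null.

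A split by single genes used the same cells. Cells with a UMI of *Pax3* but not of *Nkx6-1*, a ventral neural tube gene, had 93.4, 108, 202 and 209.5 CPM of *Gadd45a*. Cells with *Nkx6-1* alone had 17.0, 15.2, 16.0 and 15.8 CPM, and there the genotypes overlapped. Cells with UMIs of *Foxd3* or *Tfap2b*, split out after their values were seen, were 3.96% and 3.42% of the class in WT and 10.3% and 10.98% in null, and held *Gadd45a* at 333, 343, 409 and 470.3 CPM. They gave 28.4% and 31.5% of the class's *Gadd45a* UMIs in WT and 45.3% and 53.1% in null.

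Genes of both ends of the neural tube were higher in null neuroepithelium. All 6 dorsal genes and all 6 ventral genes of the lists lay above WT in both null libraries, as 34.7% of all genes of the class did, with a median log2 fold change of 0.91 and 0.74 against 0.004 over all genes. *Pax3* was at 65.8, 74.7, 132 and 129.8 CPM, *Zic1* at 1.68, 2.62, 13.7 and 13.2 CPM and *Nkx6-1* at 47.9, 51.7, 75.0 and 82.6 CPM. *Hoxc10*, a gene of the posterior axis, was seen in 202 and 196 neuroepithelium-like cells of WT but in 8 and 2 cells of null. Without cells that had a *Hoxc10* UMI, *Gadd45a* was at 57.1, 56.3, 97.7 and 102 CPM, a log2 ratio of 0.81. The part of axial position in the difference was not tested.

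The share of each sex differed between the pools in this class, and the *Gadd45a* level by sex had no common order over the libraries. Cells called female were 83.8% and 78.6% of the class in WT and 14.1% and 12.7% in null. Female cells had 38.3, 46.5, 186 and 170.1 CPM and male cells 78.7, 43.7, 83.2 and 95.1 CPM of *Gadd45a*, log2 ratios of 2.07 and 0.54. Female cells were higher in both null libraries, male cells were higher in WT 1, and the sexes were close in WT 2. The dorsal cluster took 7.09% and 7.61% of the female cells in WT and 49.4% and 45.8% in null, but 23.0% and 12.7% of the male cells in WT and 17.7% and 17.3% in null. The share of male cells in the cluster in WT, from only 14 of 61 and 9 of 71 cells, thus lay on both sides of that in null. The female share in null came from 42 of 85 and 38 of 83 cells. Outside the dorsal cluster, male cells had 24.8, 18.4, 26.1 and 25.2 CPM and female cells 21.7, 22.0, 23.3 and 25.7 CPM. With 5 and 3 embryos in the pools, sex, embryo and genotype cannot be told apart.

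**Figure D2:**
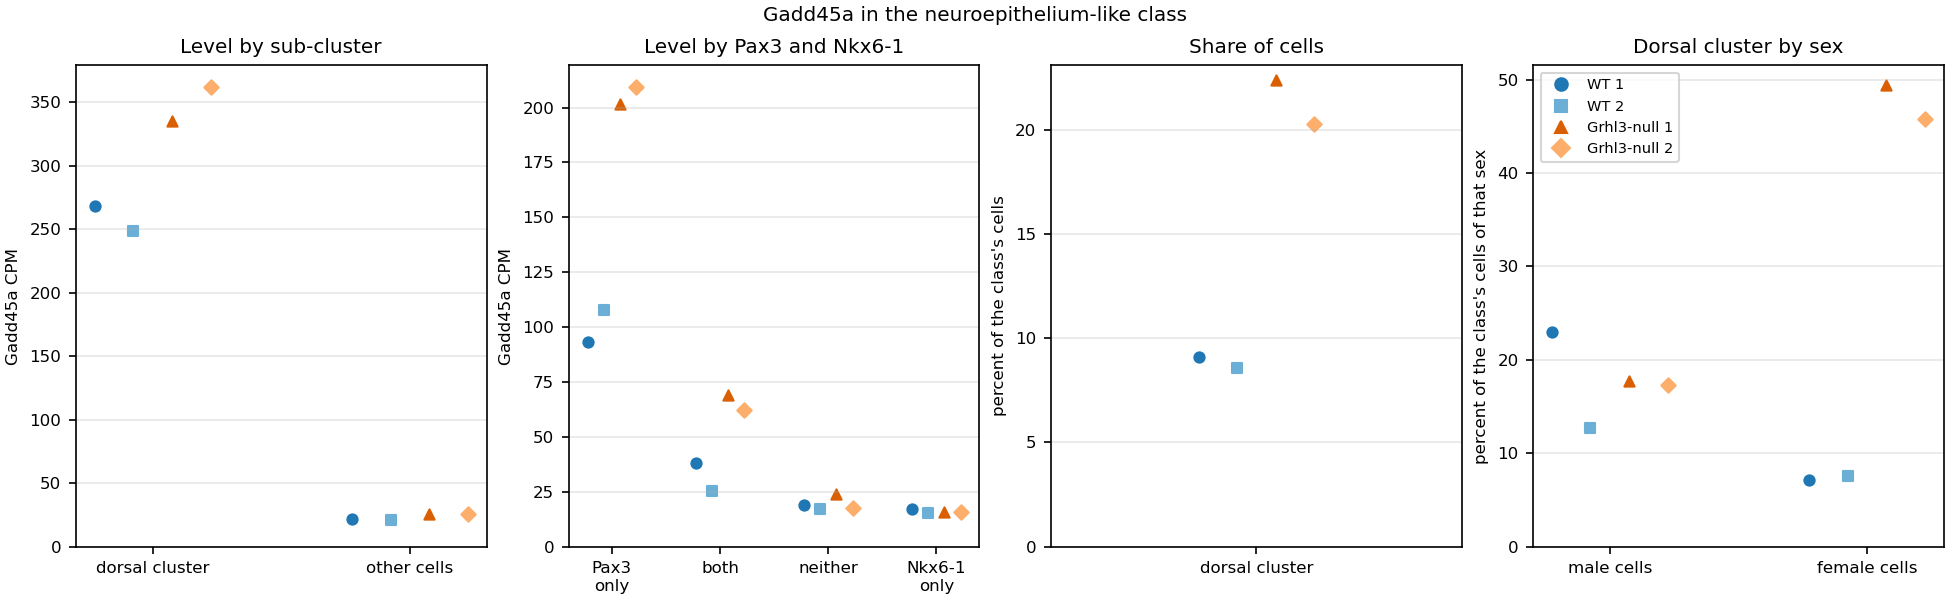
*Gadd45a* in neuroepithelium-like cells, 1 point per library: CPM inside and outside the dorsal cluster, CPM by UMIs of *Pax3* and *Nkx6-1*, percent of the class in the dorsal cluster, and percent of male and of female cells in it. The null libraries are above WT in the share of the cluster among female cells (49.4% and 45.8% against 7.09% and 7.61%), whereas male cells range from 12.7% to 23.0% with WT on both sides. The male WT points rest on 14 of 61 and 9 of 71 cells.

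Among partners and inducers of the family in this class, 10 of 24 p53 targets were higher and 6 lower in both null libraries than in both WT libraries. *Pmaip1*, which encodes the pro-apoptotic NOXA, had 26.2, 25.1, 12.2 and 10.4 CPM. *Phlda3*, an inhibitor of AKT and also a marker in the study's list for surface ectoderm and neural plate border, had 14.03, 13.03, 22.7 and 26.7 CPM. The cell cycle and repair partners divided as 2 higher and 3 lower of 7, the MAP kinase partners as 3 and 2 of 11, the DNA demethylation partners as 4 and 4 of 12, the integrated stress response genes as 3 and 6 of 11 and the immediate early genes as 3 and 5 of 11. These shares are to be read against the 34.7% and 25.3% of all genes.

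The ectoderm-like class held 435 of 878 and 325 of 803 *Grhl3* UMIs in WT, and the rest lay in other cells. In this class *Gadd45a* had 37.8 and 32.5 CPM in WT and 41.2 and 41.7 CPM in null. *Gadd45b* had 18.3, 14.9, 18.9 and 17.9 CPM and *Gadd45g* 11.1, 8.56, 10.6 and 8.70 CPM. Only for *Gadd45a* did both null libraries exceed both WT libraries. The share of all genes without overlap was counted in the neuroepithelium-like class alone, so it is missing for this and other classes. None of the 3 members passed the edgeR quasi-likelihood test after Benjamini-Hochberg adjustment over all genes, where 14.8% of the genes of the class passed. The log2 fold changes were 0.20 ± 0.08 (SE, adjusted p = 0.104) for *Gadd45a*, 0.11 ± 0.11 (adjusted p = 0.593) for *Gadd45b* and -0.06 ± 0.15 (adjusted p = 0.851) for *Gadd45g*.

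The *Gadd45a* value moved with the library and the clustering, besides the turn after thinning. WT 1 stood apart in summed haemoglobin genes in this class, at 272 CPM against 26.3, 32.0 and 33.2 CPM. Erythroid-like cells of WT 1 had 175379 CPM of these genes and 53.1 CPM of *Gadd45a*. A link between haemoglobin and the *Gadd45a* value was not tested. Without WT 1 the log2 fold change of *Gadd45a* was 0.31. With clusters from log-normalised counts it was 0.80 (adjusted p = 1.02e-07), but there the class held 14 and 10 cells of the dorsal cluster in null and 0 in WT, and 13 and 9 cells in null and 1 and 0 in WT were otherwise neuroepithelium-like, and its *Gadd45a* level was 37.8 and 31.9 CPM in WT and 63.4 and 61.5 CPM in null.

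*Grhl3* was seen in 124 of 248 and 115 of 220 cells of the class in WT and in 3 of 258 cells in each null library. In WT, cells with *Grhl3* had 52.8 and 37.5 CPM of *Gadd45a* and cells without it 13.2 and 22.1 CPM. Cells with *Grhl3* also gave more UMIs in all, with a median of 62360 and 64008 against 33121 and 31510. Over cells, r of *Gadd45a* with *Grhl3* on the log scale was 0.62 and 0.40, and 0.17 and 0.22 after thinning every cell to 7500 UMIs (thinning adds sampling noise and lowers r of any pair). In null, cells without *Grhl3*, nearly all of the class, had 39.0 and 39.4 CPM of *Gadd45a*.

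The relation to the neural side of the border was present in both genotypes (plot of ectoderm splits). Cells with *Pax3* had 54.4, 44.2, 70.9 and 77.4 CPM of *Gadd45a* and cells without it 20.1, 20.6, 15.7 and 17.0 CPM. For *Sox2* the values were 54.0, 39.5, 69.2 and 68.7 CPM with it and 20.5, 24.2, 16.5 and 17.9 CPM without it. In both splits every library had more *Gadd45a* in the cells with the gene. The null libraries were above WT on the positive side and below WT on the negative side. Cells with at least 10 UMIs of *Gadd45a* numbered only 11, 8, 16 and 12 in the class. They gave 29.1%, 25.4%, 48.0% and 42.9% of its *Gadd45a* UMIs. The r with *Sox2* was 0.55, 0.46, 0.49 and 0.54 before and 0.26, 0.18, 0.21 and 0.32 after thinning. With *Pax3* it was 0.41, 0.34, 0.48 and 0.47 before and 0.23, 0.19, 0.23 and 0.22 after thinning, so r fell for these genes as it did for *Grhl3*.

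Cells with *Tfap2c*, a border and ectoderm factor, had 47.1, 36.6, 56.6 and 51.9 CPM of *Gadd45a* against 13.8, 21.5, 27.1 and 29.4 CPM in cells without it. *Trp63* and *Krt5* mark committed surface ectoderm, and the *Krt5* split is shown in the plot alone. In WT, cells with *Trp63* had 28.9 and 26.4 CPM against 63.1 and 52.997 CPM without it. In null the same split gave 41.9 and 41.2 CPM against 39.4 and 42.6 CPM, that is, sides that overlapped.

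*Gadd45g* ran the other way, and *Gadd45b* had no common order over the libraries in the *Pax3*, *Sox2* and *Trp63* splits. *Gadd45g* was at 6.60, 5.47, 6.29 and 3.70 CPM in cells with *Pax3* and at 15.8, 11.7, 14.3 and 12.2 CPM in cells without it, lower on the positive side in each library. In WT it was at 6.47 and 5.30 CPM with *Grhl3* and 18.6 and 15.2 CPM without it. *Gadd45b* stayed between 11.4 and 22.6 CPM on both sides of the *Pax3* and *Sox2* splits. Cells with *Trp63* had 13.3, 12.95, 18.1 and 19.03 CPM of *Gadd45b* and cells without it 32.3, 21.7, 21.1 and 15.4 CPM, higher without it in all libraries but null 2. Its r with *Pax3* was 0.25, 0.04, 0.12 and 0.08 before and 0.03, 0.08, 0.04 and -0.08 after thinning. With *Trp63* it was -0.20, -0.13, -0.15 and -0.0061 before and -0.10, -0.02, 0.06 and 0.05 after thinning. Thinned r of *Gadd45b* with *Grhl3* was -0.03 and -0.09 in WT, and unthinned r between members within the class was -0.14 to 0.09.

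**Figure D3:**
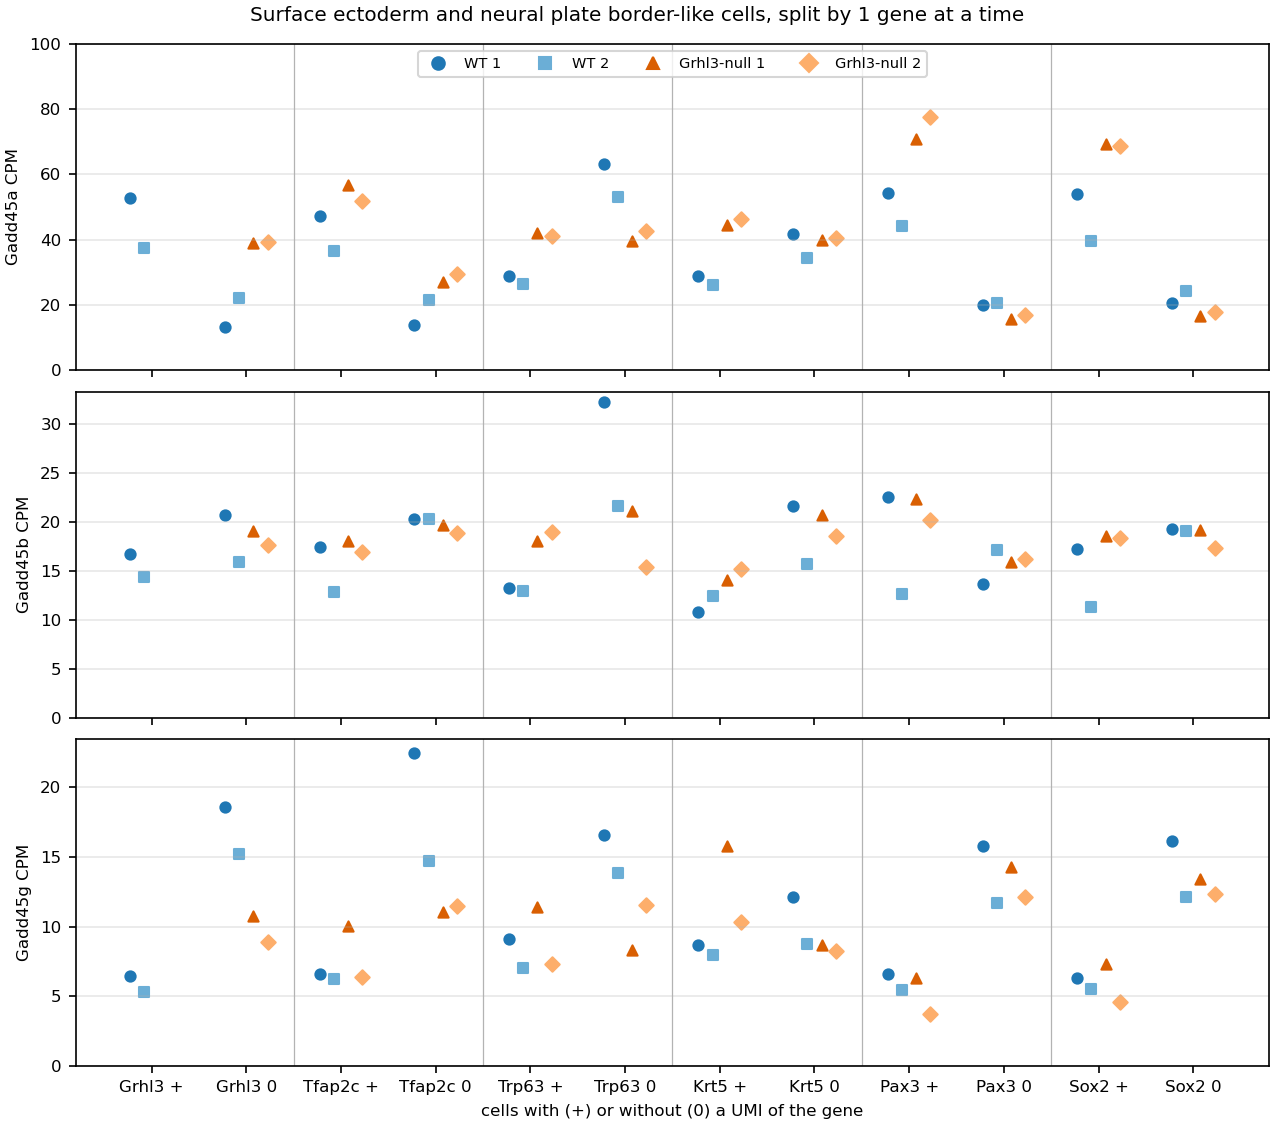
CPM of each member in ectoderm-like cells (titled by both of their tissues) with (+) or without (0) a UMI of 6 genes, 1 point per library; the null points of *Grhl3* + are left out because only 3 cells per library had it. *Gadd45a* is higher in cells with *Pax3* or *Sox2* in every library (39.5 to 77.4 CPM against 15.7 to 24.2 CPM), and *Gadd45g* is lower there.

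Inducers and partners of the family in the ectoderm-like class were set beside these values. All counts of this class are to be read against the 14.8% of its genes that passed in either direction. Of 11 immediate early genes none rose and 6 fell (median log2 fold change -0.64, against 0.0006 over all genes), with summed levels of 251, 240.5, 185 and 196 CPM. *Junb*, which encodes an AP-1 subunit and is induced early by stress, fell from 17.9 and 15.7 CPM to 5.44 and 5.51 CPM (adjusted p = 8.24e-09). Of 23 p53 targets 1 rose and 3 fell (median 0.02), a share near the 14.8% of all genes. *Perp*, a desmosome gene of epithelia, fell by 0.64 ± 0.06 on the log2 scale (adjusted p = 1.16e-07) and *Plk2* by 0.63 ± 0.12 (adjusted p = 8.78e-04), and *Mdm2*, the ligase that degrades p53, rose by 0.30 ± 0.08 (adjusted p = 0.00815).

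None of 11 MAP kinase partners and none of 12 DNA demethylation partners passed in that class. Of 7 cell cycle and repair partners only *Ccnb1*, the mitotic cyclin bound to CDK1, rose, by 0.35 on the log2 scale. Of 12 integrated stress response genes 1 rose and 1 fell. Of 8 neural plate border genes, a list that holds the deleted gene, *Pax3* and *Sox2* rose and *Grhl3*, *Tfap2c* and *Pax7* fell. Of 4 committed surface ectoderm genes only *Trp63* passed, and it fell by 0.21 on the log2 scale. The others did not move 1 way, with 0.48 for *Krt5*, 0.54 for *Krt15* and -0.66 for *Krt14*.

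Outside neuroepithelium 32 contrasts of a member in a class could be tested and 7 passed, 5 of *Gadd45g*, 2 of *Gadd45b* and none of 11 of *Gadd45a* (plot of genotype contrasts). *Gadd45g* rose in Mesenchyme 1, Mesenchyme 2, NMP and notochord-like sums and fell in paraxial mesoderm. *Gadd45b* rose in gut and fell in notochord. The share of all genes that passed was 12.0% in Mesenchyme 1, 20.9% in Mesenchyme 2, 18.6% in NMP, 4.98% in notochord, 22.0% in paraxial mesoderm and 19.7% in gut. In the remaining classes no member passed, where the share was 13.9% in somitic mesoderm, 3.57% in intermediate mesoderm, 0.601% in endothelium and 0.443% in erythroid cells.

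**Figure D4:**
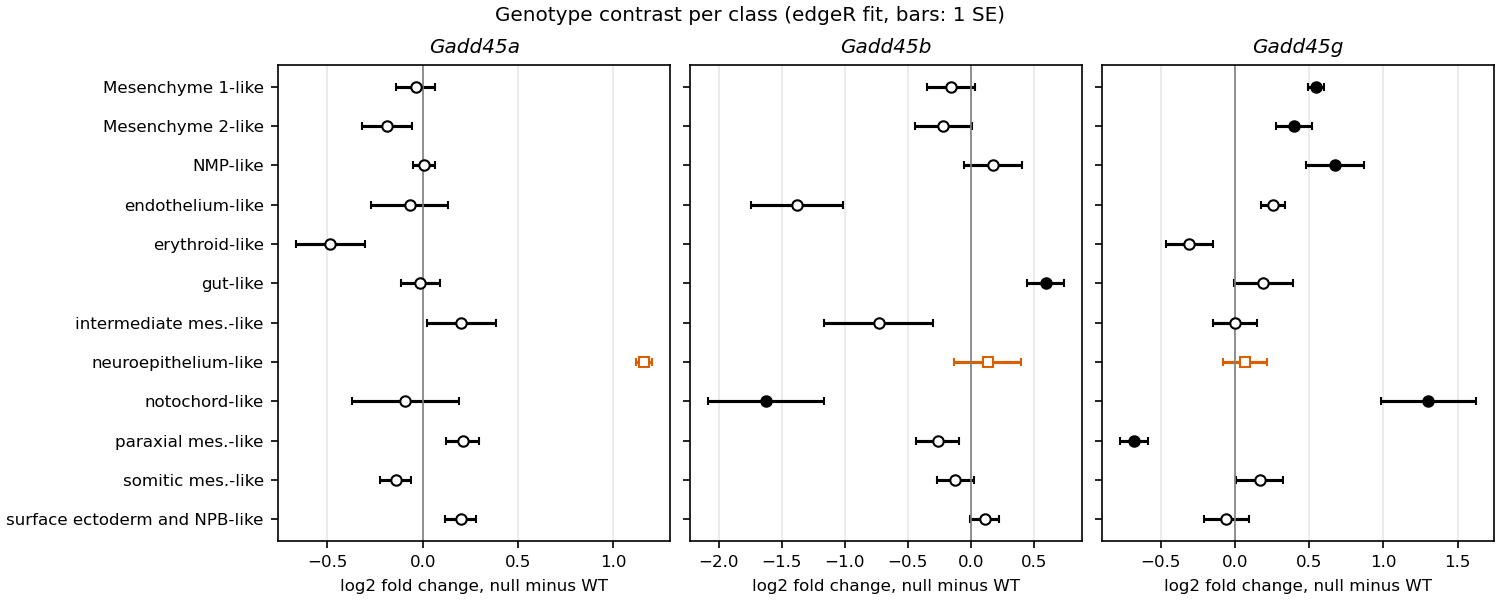
Log2 fold change of null against WT for each member and class, with bars of 1 SE (mes., mesoderm; NPB, neural plate border; NMP, neuromesodermal progenitor). Filled circles passed the test at an adjusted p under 0.05, and open circles did not. Squares show the neuroepithelium-like class, which was not tested and whose bars measure only the spread between reactions. The filled points are -1.63 and 0.59 for *Gadd45b* and -0.68 to 1.30 for *Gadd45g*.

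In paraxial mesoderm *Gadd45g* had 42.2 and 41.4 CPM in WT and 22.3 and 30.9 CPM in null, so that both null libraries lay below WT. It fell by 0.68 ± 0.10 on the log2 scale (adjusted p = 1.66e-04). This fall stood in every alternative that used the cells of both sexes, but not within a sex. Female cells had 45.0, 52.2, 40.8 and 46.5 CPM (log2 fold change -0.15, adjusted p = 0.444) and male cells 44.0, 35.9, 26.4 and 34.5 CPM (-0.42, adjusted p = 0.0944). Cells called female were 71.6% and 68.9% of the class in WT and 11.3% and 10.0% in null.

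This class also held many cells with UMIs of both *Xist* and Y-linked genes, which are not expected together in a cell of 1 embryo. The call uses fixed UMI counts, so deeper cells meet it more easily. Whether mixed cells or stray RNA gave these UMIs was not tested. These mixed-sex cells were 15.8% and 17.2% of the class in WT and 28.7% and 28.4% in null, with a median of 76808 to 103104 UMIs against 33718 to 37876 in the remaining cells. Their *Gadd45g* level was lower, at 34.3, 22.7, 15.3 and 21.0 CPM, and in WT 1, null 1 and null 2 the class as a whole lay below both its male and its female cells, whereas in WT 2 it lay between them. Without them *Gadd45g* was at 44.9, 49.2, 28.6 and 40.5 CPM, and it fell by 0.48 ± 0.10 on the log2 scale (adjusted p = 0.00348). Mixed-sex cells were removed after seeing the data, and mixtures of cells of the same sex cannot be seen in this way.

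Cells with UMIs of *Mesp2* or *Ripply2*, which mark the next somites to form, carried much of this signal. They were 39.8% and 38.1% of the class in WT and 27.0% and 25.7% in null. *Gadd45g* was at 65.1, 61.9, 33.8 and 44.5 CPM in them and at 23.3, 26.7, 16.8 and 25.02 CPM in the other cells (plot of *Gadd45g* within classes). On the positive side both null libraries were below WT, and on the other side the genotypes overlapped. Of 10 Notch, segmentation and neurogenic genes 2 rose and 8 fell in the class, in which 22.0% of all genes passed, with a median log2 fold change of -0.60 against 0.008 over all genes. *Mesp2* fell by 1.99, *Ripply2* by 1.47 and *Dll3*, a Notch ligand of the presomitic mesoderm, by 0.84 on the log2 scale. Of the partners and inducers in this class, 5 of 24 p53 targets fell and none rose, a share near the 22.0% of all genes. Of 7 cell cycle and repair partners 4 fell and none rose, and of 11 immediate early genes 4 fell and 1 rose. Of 12 integrated stress response genes 3 fell and 1 rose, and of 12 DNA demethylation partners 1 fell and none rose. Of 11 MAP kinase partners 2 rose and none fell, as did 2 of 5 dorsal neural tube genes, and 1 of 6 ventral genes rose.

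**Figure D5:**
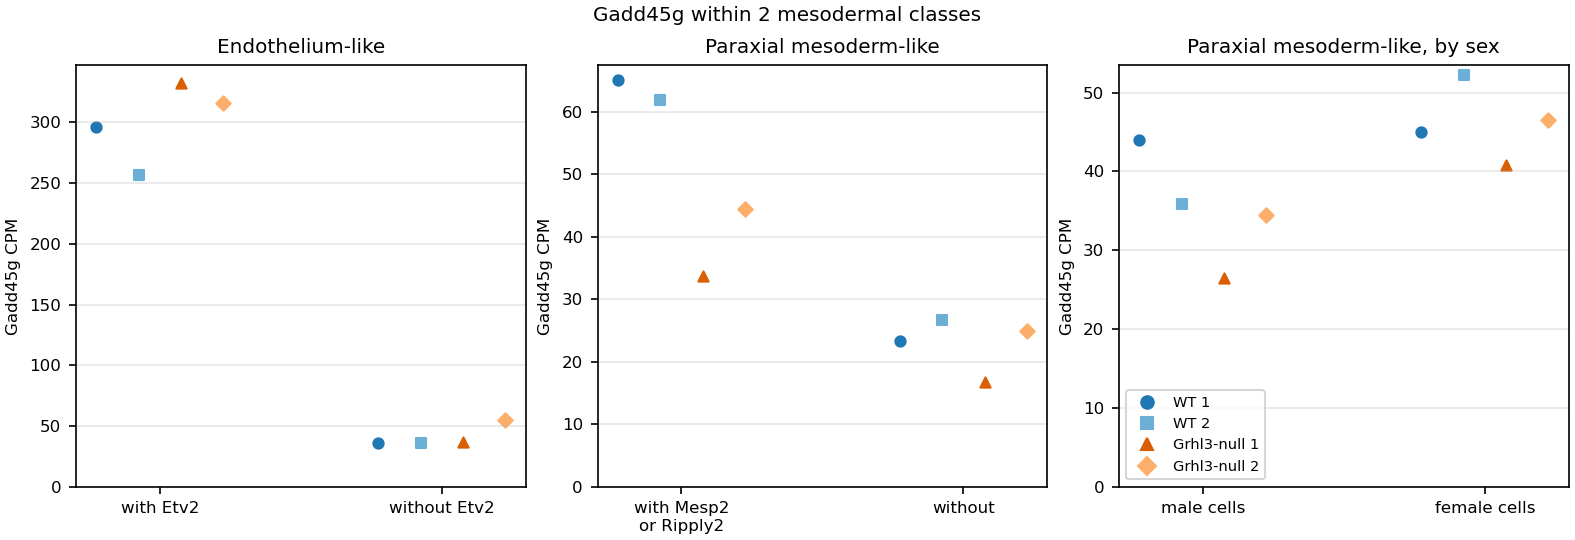
*Gadd45g* CPM, 1 point per library, in endothelium-like cells with and without *Etv2*, in paraxial mesoderm-like cells with and without *Mesp2* or *Ripply2*, and in male and female paraxial mesoderm-like cells. Cells with *Etv2* hold 257 to 332 CPM against 35.6 to 54.8 CPM without it, and the WT points of cells with *Mesp2* or *Ripply2* (65.1 and 61.9 CPM) are above the null points (33.8 and 44.5 CPM).

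In Mesenchyme 1 *Gadd45g* had 18.1 and 18.9 CPM in WT and 26.4 and 27.5 CPM in null, without overlap. It rose by 0.55 ± 0.06 on the log2 scale (adjusted p = 1.95e-06), and the call was kept in 16 of 17 alternatives. It was lost in male cells, which had 22.3, 21.0, 21.6 and 26.1 CPM (0.14, adjusted p = 0.417). Female cells had 14.7, 16.8, 29.7 and 29.4 CPM, with both null libraries above WT.

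In Mesenchyme 2 *Gadd45g* had 11.04, 9.66, 12.5 and 14.6 CPM and rose by 0.40 ± 0.12 on the log2 scale (adjusted p = 0.0263). This call was lost without WT 2 (0.30, adjusted p = 0.186), without null 2 (0.28, adjusted p = 0.203), without a filter on low counts (0.39, adjusted p = 0.052), in DESeq2 and within each sex, and at a resolution of 0.8 the sign turned. In NMP it had 1.93, 2.59, 4.199 and 2.97 CPM and rose by 0.67 ± 0.20 (adjusted p = 0.0321), from 72, 93, 149 and 88 UMIs. That call was lost without WT 1 (0.47, adjusted p = 0.157), without null 1 (0.37, adjusted p = 0.226), in DESeq2, with log-normalised clusters and within each sex.

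In the notochord-like class, with 44 to 75 cells per library, *Gadd45g* rose and *Gadd45b* fell. *Gadd45g* gave 7, 38, 41 and 42 UMIs (2.95, 11.6, 20.8 and 18.4 CPM) and rose by 1.30 ± 0.32 on the log2 scale (adjusted p = 0.00761). Up to 17 of these UMIs came from 1 cell. *Gadd45b* gave 17, 33, 7 and 5 UMIs (7.17, 10.1, 3.55 and 2.19 CPM) and fell by 1.63 ± 0.46 (adjusted p = 0.0268). The *Gadd45g* call was lost without WT 1 (0.74, adjusted p = 0.297), null 1 (1.20, adjusted p = 0.131) or null 2 (1.41, adjusted p = 0.0676), and the *Gadd45b* call was lost when any 1 library was left out (-1.29 to -2.01, adjusted p = 0.0773 to 0.395). Both were lost in DESeq2 and at 5% mitochondrial UMIs, and that of *Gadd45b* also with doublets removed (-1.48, adjusted p = 0.145) and with log-normalised clusters (-1.45, adjusted p = 0.0845). Without mixed-sex cells, 4.69% to 16.4% of the class, the *Gadd45g* value was 2.00 (adjusted p = 0.0032) and that of *Gadd45b* -1.40 (adjusted p = 0.142).

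In gut *Gadd45b* had 8.00, 6.64, 10.0 and 12.8 CPM and rose by 0.59 ± 0.15 on the log2 scale (adjusted p = 0.00656). The call was lost without WT 2 (0.47, adjusted p = 0.0518), without null 2 (0.41, adjusted p = 0.104), without a filter on low counts (0.60, adjusted p = 0.0837), in DESeq2 (0.60, adjusted p = 0.0945) and in female cells. Male cells had 6.98, 5.33, 12.1 and 14.2 CPM, and female cells had 8.59, 7.66, 7.39 and 11.4 CPM (0.21, adjusted p = 0.644).

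Endothelium held the highest level of *Gadd45g*, and its contrasts passed in some alternatives only. The levels were 238, 197, 248 and 276 CPM, both null libraries above WT, with a log2 fold change of 0.26 ± 0.08 (adjusted p = 0.227). *Gadd45b* was at 5.33, 3.15, 1.75 and 1.49 CPM, with -1.38 ± 0.36 (adjusted p = 0.156). Neither passed, where 0.601% of the genes of the class did. The *Gadd45g* contrast passed without WT 1 (0.40, adjusted p = 4.23e-04), without null 1 (0.33, adjusted p = 0.0172), at 5% mitochondrial UMIs (0.33, adjusted p = 0.0154) and in female cells (0.46, adjusted p = 0.0135). That of *Gadd45b* passed without WT 2 (-1.72, adjusted p = 0.0104) and at 5% mitochondrial UMIs (-2.27, adjusted p = 0.0106).

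The *Gadd45g* of endothelium lay in cells with *Etv2*, the ETS factor of haematoendothelial progenitors, a gene chosen after its values were seen. These cells, 68.4%, 66.7%, 66.1% and 79.7% of the class, had 296, 257, 332 and 316 CPM and gave between 95.0% and 97.0% of its *Gadd45g* UMIs. Cells without *Etv2* had 35.6, 36.3, 36.8 and 54.8 CPM, at a lower median depth (22016 to 30222 against 39901 to 44120.5 UMIs). Cells with at least 10 UMIs of *Gadd45g* were 36.2%, 32.7%, 38.5% and 44.7% of the class and gave between 85.1% and 85.6% of the UMIs.

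*Gadd45a* passed in none of the 11 tested classes. In erythroid cells it had 53.1, 89.1, 48.3 and 55.4 CPM, and the value of -0.48 ± 0.18 (adjusted p = 0.393) lay between WT libraries that differed widely. Without WT 1 it was -0.89 (adjusted p = 3e-06), with doublets removed -0.60 (adjusted p = 0.0177), without mixed-sex cells -0.57 (adjusted p = 0.0146) and in female cells -0.92 (adjusted p = 0.0015). In paraxial mesoderm it had 11.02, 10.6, 11.8 and 13.7 CPM (0.21 ± 0.09, adjusted p = 0.101), which passed without null 1 (0.31, adjusted p = 0.0158) and without mixed-sex cells (0.37, adjusted p = 0.0185). In NMP, somitic mesoderm, gut, notochord, intermediate mesoderm, endothelium and both mesenchyme classes the log2 fold change was between -0.19 and 0.20. In NMP it passed with log-normalised clusters (0.49, adjusted p = 2.55e-04) and, with the other sign, in female cells (-0.24, adjusted p = 0.0346), and in intermediate mesoderm it passed in male cells (1.37, adjusted p = 0.0416).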

How the data were processed

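ScRNA-seq of 4 libraries was used, 2 WT and 2 *Grhl3*-null, grouped by their sample labels. The deposited files hold raw UMI counts per gene and cell, which the authors made with Cell Ranger on mm10, before their filters and without normalisation. The filters were 3000 genes and 7500 UMIs as minimum and 7% mitochondrial UMIs as maximum, which 20198 of 24239 cells passed. Libraries were merged without integration and clustered in R 4.3.3 after sctransform (0.4.2) with Seurat (5.3.0; 3000 variable features, 30 principal components, 20 neighbours, resolution 0.4). A cluster took the type with most of its 15 markers among the 30 leading genes (at least 3, and over 1.5 times the next type), so names are rebuilt and can differ from the study's. An unnamed cluster of 527 cells was left out. The automatic Scrublet threshold (scanpy 1.11.5) marked under 0.5% of cells, so the top 5% of scores were taken as doublets, kept here and left out in 1 alternative.

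Sums of UMIs per library were formed for the 12 classes with at least 20 cells in every library and tested with edgeR 4.0.16 (TMM, filterByExpr, quasi-likelihood, two-sided), adjusted by Benjamini-Hochberg over all genes of a class. A gene passed at an adjusted p under 0.05. The fit was run on simulated counts of the ectoderm-like class, with 12392 genes tested and 200 changed by 2 on the log2 scale. It recovered 199 of these and made 11 wrong calls. Smaller changes, such as those of the members, and differences between pools were not simulated. Counts of same-genotype libraries differed beyond sampling noise (chi-square over degrees of freedom 8.2 and 14.4), and each was counted. Both came from 1 pool of cells, so this spread does not make them independent replicates of a genotype. A cell counted as male from 2 UMIs of 4 Y-linked genes on, if *Xist* had no more than 2, and as female from 3 of *Xist* on, if the Y-linked genes had no more than 1. Cells with at least 2 Y-linked UMIs and 3 of *Xist* are named mixed-sex. Per-cell r used log counts per 10000, also after thinning to 7500 UMIs. Python 3.11.15, numpy 2.4.6, pandas 2.3.3, scipy 1.17.1 and matplotlib 3.10.9 were used, and DESeq2 1.42.0 as an alternative. Genes named were the members, *Grhl3*, the 5 most similar genes per member, up to 3 passing genes with the largest change per list and class at a mean of at least 10 CPM, and genes that split a class. Further genes of the border and committed ectoderm lists are named at any level. Members, lists and rules were chosen with earlier results of these data known.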

Additional observations from a re-analysis of the deposited data

Results flagged for a closer look

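The genotype contrasts of a member differed in direction between classes. *Gadd45b* had a log2 fold change of 0.59 in gut and -1.63 in notochord. *Gadd45g* had 0.55 in Mesenchyme 1, 0.40 in Mesenchyme 2, 0.67 in NMP and 1.30 in notochord but -0.68 in paraxial mesoderm. Flagging required that a contrast passed the test and that the libraries of the genotypes did not overlap, so neither is an added result. The difference between classes was not tested, and all of these contrasts compare the same pools of embryos.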

How the results depend on the processing

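Of the 32 contrasts outside neuroepithelium 7 passed, and 7 passed with size factors of DESeq2 (RLE), with library totals, with doublets removed, at 5% mitochondrial UMIs, with log-normalised clusters and at a resolution of 0.8, although between 5 and 7 of these were the same contrasts. DESeq2 called 2, the fit without a filter on low counts 5 of 33, male cells 2 of 25, female cells 5 of 28, and fits without 1 library 3 (without null 2) to 7, in which the lone library of a genotype was assumed to vary like the others. The replicate block called 9, adding to the 7 *Gadd45b* (adjusted p = 0.0423) and *Gadd45g* (adjusted p = 0.0463) of endothelium. The numbers pair reactions only by name, with correlations of same-numbered deviations from -0.16 to 0.18 over classes. An exchanged pairing, added after seeing the data because of the negative value in erythroid cells, also called 9. Without mixed-sex cells, likewise added after seeing the data, 8 passed, of which 6 were among the 7, the neuroepithelium log2 ratio of *Gadd45a* was 1.19, and no member passed in the ectoderm-like class. In the ectoderm-like class the replicate block left log2 fold changes of 0.20, 0.11 and -0.06 for *Gadd45a*, *Gadd45b* and *Gadd45g*, none of which passed.

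In the ectoderm-like class *Gadd45a* ranged from 0.10 to 0.31 with 1 library left out (0.31 without WT 1, past the threshold) and was 0.80 with log-normalised clusters. *Gadd45b* ranged from -0.021 (without WT 2) to 0.26 and was -0.0078 in male cells. *Gadd45g* ranged from -0.22 to 0.14 (0.14 without WT 1, 0.07 without null 2) and was 0.10 with log-normalised clusters, 0.16 at a resolution of 0.8 and 0.80 in male cells. After thinning, the ectoderm-like *Gadd45a* level of both null libraries lay below that of both WT libraries. *Gadd45g* in Mesenchyme 2 turned to -0.59 at a resolution of 0.8.

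The log2 ratio of neuroepithelium was 1.19 for *Gadd45a*. It was 1.14 with log-normalised clusters, 0.38 at a resolution of 0.8, where the dorsal cluster left the class, 0.54 in male cells, 2.07 in female cells, 0.28 without the dorsal cluster and 0.81 without cells with *Hoxc10*, the last 2 chosen after seeing the data, and 1.16 to 1.21 with 1 library left out. *Gadd45b* (0.15) was -0.058 with log-normalised clusters, -0.14 in male cells, 1.10 in female cells and -0.12 without the dorsal cluster. *Gadd45g* (0.10) was -0.28 at a resolution of 0.8, 1.63 in male cells, -1.33 in female cells and -0.23 without cells with *Hoxc10*. The level of *Gadd45a* was 41.8 CPM in WT and 92.0 CPM in null with log-normalised clusters, 20.01 and 26.01 CPM at a resolution of 0.8, and in null 103.0 CPM without doublets and 95.6 CPM after thinning. Mean r with *Grhl3* in WT fell to 0.19 for *Gadd45a* and was -0.064 for *Gadd45b* and -0.069 for *Gadd45g* after thinning. The 5 to 42 UMIs of *Gadd45b* and *Gadd45g* per library limit what could be called in notochord.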
